A study of Mus musculus with 6 samples.

Results

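In mature CD4 single-positive (SP) thymocytes lacking Jmjd3 and Utx, *Il18r1* fell from well above background to within the range of background genes. It encodes the ligand-binding chain of the interleukin-18 receptor. *Il1rl2*, *Sigirr* and *Myd88*, which encode the interleukin-36 receptor, an inhibitory receptor and the shared signalling adaptor, fell by much smaller amounts. The IL-1 and IL-18 receptor family is taken here as 10 genes listed by symbol, of 19752 genes measured. The array annotation named a row for 7 of them, *Il18r1*, *Il18rap*, *Il1rl2*, *Il1r2*, *Il1rap*, *Sigirr* and *Myd88*, with 1 row each. *Il1r1*, *Il1rl1* and *Irak4* were not analysed here.

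RNA of Vα2hi CD24lo CD4 SP thymocytes was measured in 3 wild-type and 3 dKO samples, each hybridized to 1 Affymetrix array. The cells were sorted from OT-II TCR-transgenic animals. The dKO cells were Jmjd3 f/f and Utx f/f, with the floxed *Kdm6b* (Jmjd3) and *Kdm6a* (Utx) alleles deleted by Cre under *Cd4* control, which becomes active at the CD4+CD8+ (double positive, DP) stage. Animals without Cre, carrying the same TCR transgene, gave the wild-type cells. The samples were described as biological replicates but not stated to come from different mice, so that the p-values reflect only how far these samples spread. Ages and sexes of the animals were not given in the labels.

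Receptors of this family pair a ligand-binding chain with an accessory chain, and bring their cytoplasmic TIR domains together when the cytokine binds. The TIR domains recruit Myd88, which assembles Irak4 and other Irak kinases, and the signal passes through Traf6 to the IκB kinases, NF-κB and MAP kinases. Il18r1 and Il18rap form the receptor for interleukin-18, and Il1rl2 with Il1rap the receptor for interleukin-36 cytokines. Il1r2 is a decoy that binds interleukin-1 without signalling, and Sigirr restrains signalling by its relatives. In T cells, interleukin-18 is best known for enhancing interferon-γ production together with interleukin-12, and regulatory T cells and innate-like T cells also carry its receptor.

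Jmjd3 and Utx remove H3K27Me3, a repressive mark that tends to accumulate at CpG-rich promoters that are silent. For that reason the bases before the start of a strongly lowered gene, of a modestly lowered gene of the same chromosomal cluster and of the adaptor are shown, with every CpG in capitals. The sequences are from RefSeq on GRCm38.p6, 5′ to 3′ on the strand of the gene, and end at the base before the annotated start. For *Il18r1* only the 133 bases that separate its start from the end of *Il1rl1* are given (chr1:40465419-40465551, + strand). For *Il1rl2* (chr1:40324339-40324588, + strand) and *Myd88* (chr9:119340019-119340268, - strand) 250 bases are given.
Il18r1: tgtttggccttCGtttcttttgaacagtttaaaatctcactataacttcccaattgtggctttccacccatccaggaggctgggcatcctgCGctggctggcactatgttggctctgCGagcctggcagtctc
Il1rl2: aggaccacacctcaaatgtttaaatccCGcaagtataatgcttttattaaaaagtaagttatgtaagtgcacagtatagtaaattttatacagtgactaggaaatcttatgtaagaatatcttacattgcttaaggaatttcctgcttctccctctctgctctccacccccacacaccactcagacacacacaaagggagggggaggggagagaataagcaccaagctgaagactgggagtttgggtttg
Myd88: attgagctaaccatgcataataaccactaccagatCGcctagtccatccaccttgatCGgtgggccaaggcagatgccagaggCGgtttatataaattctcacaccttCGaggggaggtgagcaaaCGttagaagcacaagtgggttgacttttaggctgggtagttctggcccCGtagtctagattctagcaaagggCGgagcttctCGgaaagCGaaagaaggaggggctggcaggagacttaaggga

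The stretches shown hold 3 CpG before *Il18r1*, 1 before *Il1rl2* and 9 before *Myd88*. Over the full promoter windows of RefSeq (250 bases before to 50 after a start), the median of 32851 windows was 7 CpG. The 3 windows of *Il18r1* held 5, 7 and 8 CpG, and 38.0%, 47.9% and 51.4% of all windows held fewer. The window of *Il1rl2* held 3 CpG (fewer in 23.3% of windows), that of *Il18rap* 4 (31.4%), and that of *Myd88* 13 (62.1%). The window of *Il1r2* held 16 (67.0%) and that of *Il1rap* 33 (91.4%), and *Sigirr* had no window in the table used. These letter counts say nothing of the H3K27Me3 level, which was not measured by the arrays.

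On the arrays, *Kdm6a* had log2 values of 10.16, 10.11 and 10.20 in wild-type and of 9.48, 9.40 and 9.58 in dKO samples, which did not overlap (adjusted p = 2.6e-05 from limma). *Kdm6b* had an adjusted p of 0.324, with dKO values of 9.71, 9.85 and 9.86 reaching into the wild-type range of 9.83 to 9.97. Each value summarizes probes along a transcript, of which Cre deletes a part, so neither is a measure of the deletion. Over genes, arrays correlated at 0.998 to 0.999 within and 0.991 to 0.993 between genotypes. The T-cell markers *Cd3e* and *Cd4* averaged 13.06 and 12.21 on the log2 scale on wild-type arrays and 13.07 and 12.30 on dKO arrays, far above background. Of the 5 measured markers of mature CD4 thymocytes, 2 were lower in dKO cells, *Cd5* (log2 fold change -0.43, adjusted p = 0.00226 from limma) and *Zbtb7b* (-0.27, adjusted p = 0.0221), and neither call held with the t-test. The call on *Zbtb7b* was also lost on omitting wild-type replicate 2, wild-type replicate 3 or dKO replicate 1 (highest adjusted p = 0.0706). The paper, which names no test for its arrays, reports no reduction of *Zbtb7b* in dKO cells. Background was taken from 1194 olfactory and vomeronasal receptor genes, which thymocytes are not known to use. Their 95th percentile averaged 5.58 on the log2 scale over wild-type and 5.53 over dKO arrays, and their median 4.21 in both.

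*Il18r1* was reduced in dKO cells to below the 95th percentile of the background genes, at most 25% of its wild-type level. Its log2 values were 7.50, 7.64 and 7.46 on the wild-type arrays and 5.30, 5.17 and 5.34 on the dKO arrays. The lowest wild-type array lay above the highest dKO array by far more than the spread within either genotype (SD 0.09 over the 3 arrays of each). The log2 fold change was -2.26 (95% confidence interval -2.41 to -2.12, adjusted p = 2.4e-08 from limma). The wild-type mean stood 1.95 log2 units above the 95th percentile of the background genes, and the dKO mean 0.26 below it (difference -0.26). By this definition the dKO level is not told apart from background, which limits the measured 4.80-fold difference (20.8% of wild-type). The dKO mean of 5.27 did lie above the median of the background genes (4.21) and the first quartile of all genes (5.04). With the background percentile of each dKO array in place of the measured value, the *Il18r1* level of dKO cells was at least 4.0-fold lower. Fewer cells that express the gene and less RNA per cell cannot be told apart in these bulk samples.

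*Il18rap*, which encodes the accessory chain of the same receptor, was at background in both genotypes. Its log2 values were 4.42, 4.56 and 4.40 in wild-type and 4.25, 4.43 and 4.37 in dKO samples, and the groups overlapped. Relative to the background percentile, the wild-type mean lay at -1.13 and the dKO mean at -1.18 log2 units. The log2 fold change of -0.11 did not pass the test (95% confidence interval -0.25 to 0.03, adjusted p = 0.276 from limma). At this level the arrays can show neither a loss nor its absence for this chain.

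*Il1rl2*, the ligand-binding chain of the interleukin-36 receptor, kept 78.2% of its wild-type level. On the log2 scale it read 8.76, 8.74 and 8.82 in wild-type and 8.45, 8.34 and 8.47 in dKO samples. No dKO array reached the lowest wild-type array, and both means were about 3 log2 units above the background percentile (3.19 and 2.89). It fell by 0.36 on the log2 scale (95% confidence interval -0.47 to -0.24, adjusted p = 8.5e-04 from limma).

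*Il1rap*, the accessory chain shared by the receptors for interleukin-1, interleukin-33 and interleukin-36, was not called in either direction. The arrays gave log2 values of 7.65, 7.61 and 7.74 in wild-type and 7.80, 7.84 and 7.73 in dKO samples. The dKO samples tended to the upper side, but the lowest of them fell within the wild-type range. The difference of 0.12 on the log2 scale did not pass the test (95% confidence interval 0.00 to 0.24, adjusted p = 0.143 from limma). With the means 2.08 and 2.26 log2 units above the background percentile, a decrease of the size seen for *Il1rl2* lay outside that interval.

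*Il1r2*, the decoy receptor, was near background in both genotypes, with log2 values of 5.05, 4.99 and 4.98 in wild-type and 5.04, 4.89 and 4.84 in dKO samples. The groups overlapped, and the log2 fold change of -0.08 did not pass the test (95% confidence interval -0.21 to 0.06, adjusted p = 0.425 from limma).

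*Sigirr*, the inhibitory receptor of the family, kept 82.2% of its wild-type level. In log2 units it read 9.14, 9.23 and 9.28 in wild-type and 8.94, 8.95 and 8.91 in dKO samples. The dKO arrays lay close together, below every wild-type array. The decrease was -0.28 on the log2 scale (95% confidence interval -0.40 to -0.17, adjusted p = 0.00281 from limma).

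*Myd88*, the adaptor used by these receptors and by most Toll-like receptors, kept 84.3%. The log2 values were 10.16, 10.12 and 10.06 in wild-type and 9.90, 9.84 and 9.86 in dKO samples, again without overlap. The log2 fold change was -0.25 (95% confidence interval -0.35 to -0.14, adjusted p = 0.00446 from limma). Both means stood more than 4 log2 units above the background percentile (4.53 and 4.34), where a fold is little compressed.

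**Figure D1:**
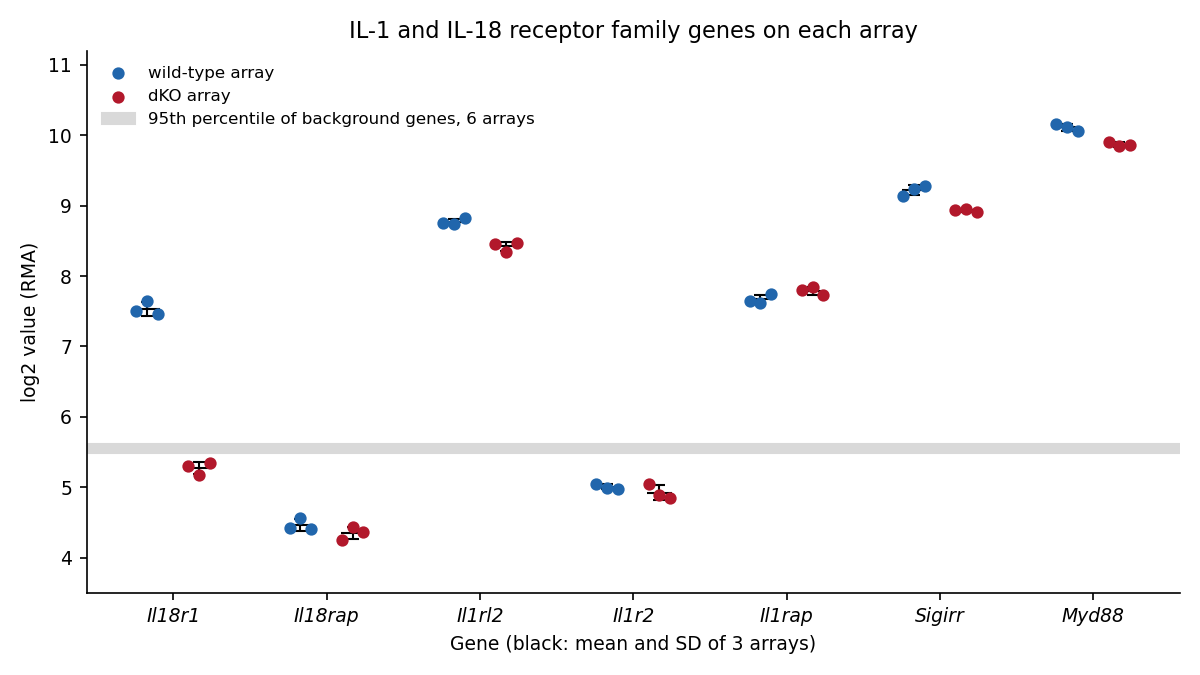
Log2 value (vertical axis) of the 7 measured genes of the family on each of the 3 wild-type (blue) and 3 dKO (red) arrays, with mean and SD in black. The grey band spans the 95th percentile of the background genes over the 6 arrays, and the dKO values of *Il18r1* (5.17 to 5.34) drop below it from wild-type values of 7.46 to 7.64.

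In all, 4 of the 7 measured members were lower, none was higher and 3 had no call, and the median log2 fold change was -0.25 against 0.01 over all genes. Of all genes tested, 10.0% were called lower and 13.1% higher, 23.1% together. The same shares are given beside the counts in the lists below. They include dim genes, which are called less often. Among the brighter 50% of genes tested alone, 1887 of 9876 were lower and 2634 higher. The 1 member with an unadjusted p under 0.05 and no call was *Il1rap*. The same 4 members had all dKO arrays below all wild-type arrays, as did 16.5% of all genes, and no member had all dKO arrays above, as did 21.3%. A t-test also called 4 lower and none higher. The 4 calls held under each of 15 other settings, which included leaving out each array in turn. Under these the adjusted p reached at most 0.00332 for *Il18r1* and 0.0325 for *Sigirr*, both with the t-test.

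**Figure D2:**
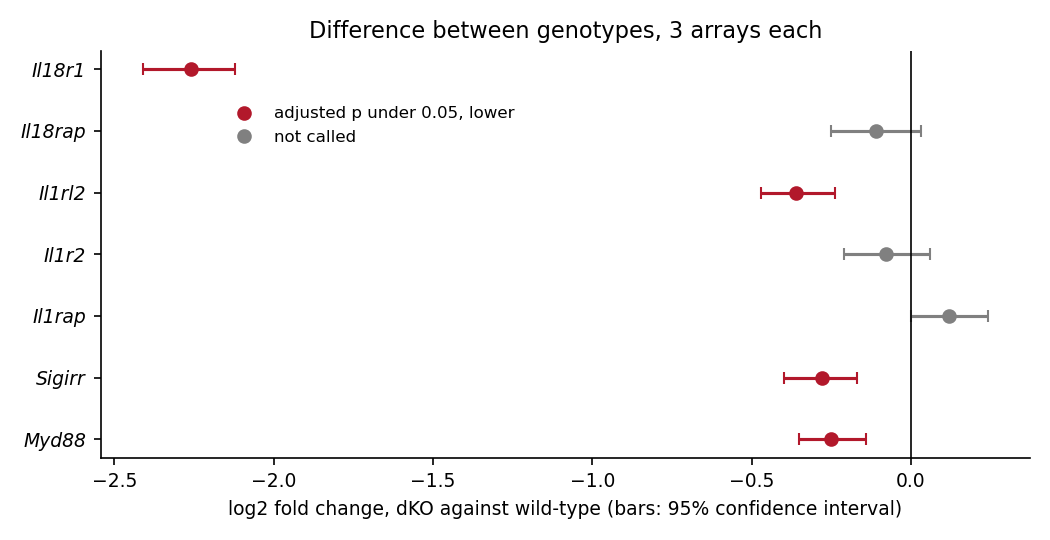
Log2 fold change of dKO against wild-type cells (horizontal axis) for each measured member, with the 95% confidence interval from limma, in red for members lower at an adjusted p under 0.05 and in grey for the others. The interval of *Il18r1* (-2.41 to -2.12) lies apart from those of the 3 other lower members, which span -0.47 to -0.14.

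*Il1r2*, *Il1r1*, *Il1rl2*, *Il1rl1*, *Il18r1* and *Il18rap* lie next to each other in this order on chromosome 1, as listed by RefSeq, so the difference was followed along the chromosome. Within the cluster, the strongly lowered *Il18r1* stood between *Il1rl2* (-0.36) and *Il18rap* (-0.11, at background). Of the 5 measured genes on either side, 10 together, 1 was lower, none was higher and 9 were not called, at a median log2 fold change of -0.03. The count of lower neighbours is near the share over all genes, of which 10.0% were called lower. The 1 that was lower was *Map4k4*, which encodes a Ste20-family kinase and is the nearest measured gene before the cluster. Its log2 values were 10.15, 10.20 and 10.21 in wild-type and 9.86, 9.81 and 9.86 in dKO samples (log2 fold change -0.34, adjusted p = 4.6e-04 from limma). On the other side the nearest measured genes, *Slc9a4* and *Slc9a2*, encode sodium-proton exchangers. Their log2 fold changes were -0.10 (adjusted p = 0.213) and -0.05 (adjusted p = 0.58). *Cnot11*, *Rnf149*, *Creg2* and *Rfx8* before the cluster and *Mfsd9*, *Tmem182* and *Pantr1* after it lay between -0.12 and 0.12. Of the 10 neighbours 5 were at background in both genotypes, where a decrease could not show. These were *Rfx8* before the cluster and *Slc9a4*, *Slc9a2*, *Tmem182* and *Pantr1* after it. After the cluster only *Mfsd9* was above background.

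**Figure D3:**
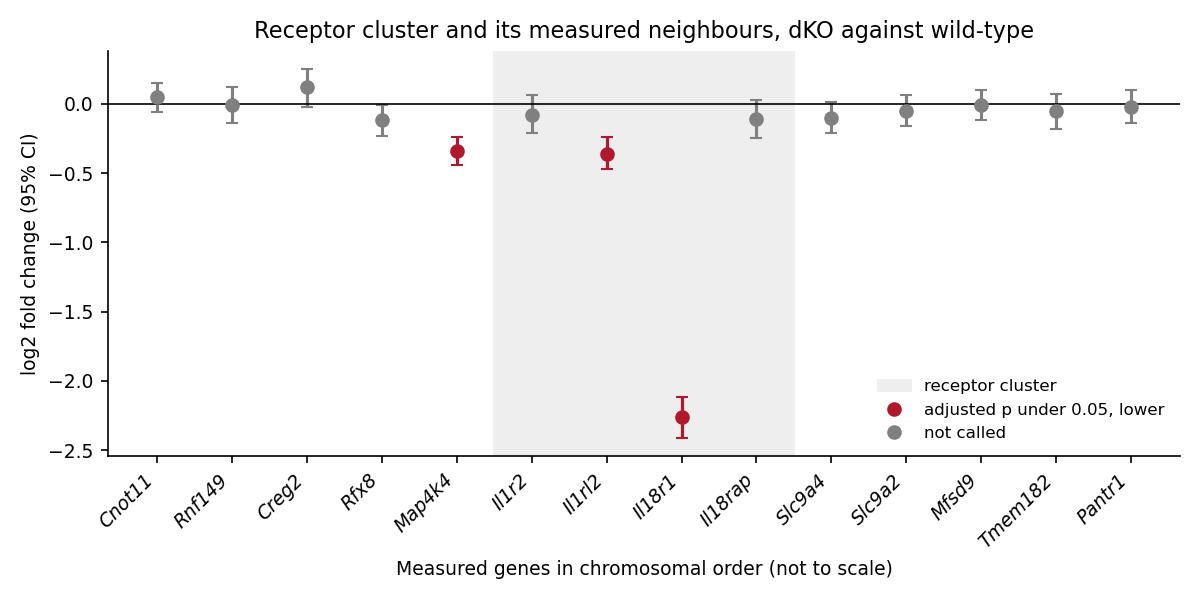
Log2 fold change of dKO against wild-type cells with its 95% confidence interval (vertical axis) for the measured genes of the receptor cluster (shaded) and 5 measured genes on each side, in chromosomal order and not to scale. *Il18r1*, at -2.26, stands apart from its neighbours, and *Map4k4* and *Il1rl2* were lower at -0.34 and -0.36.

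Of 11 genes for ligands, antagonists and soluble binding proteins, 10 were at background in both genotypes, among them *Il1b*, *Il18*, *Il33* and the interleukin-36α gene *Il1f6*. *Il18* had log2 values of 3.95 to 4.21 in wild-type and 3.96 to 4.04 in dKO samples. The 1 gene of the list that was lower was *Il18bp*, whose secreted product binds and neutralizes interleukin-18. Its log2 values were 7.44, 7.64 and 7.37 in wild-type and 6.78, 6.89 and 7.08 in dKO samples, without overlap (log2 fold change -0.57, adjusted p = 0.00107 from limma, and 0.0592 with the t-test). The list median was -0.01. Of 7 genes for processing of these cytokines, 2 were lower and none was higher (median -0.05). *Pycard*, the inflammasome adaptor ASC, kept 65.2% of its wild-type level (log2 fold change -0.62, adjusted p = 2.2e-05). *Gsdmd*, the pore-forming gasdermin D, decreased by 0.18 in log2 terms (adjusted p = 0.0465), a call lost on leaving out any 1 array other than wild-type replicate 3 (highest adjusted p = 0.181). *Casp1*, which cleaves the interleukin-1β and interleukin-18 precursors, was at background, at 4.45 and 4.44.

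Between receptor and NF-κB, 4 of 16 measured genes were lower (10.0% over all genes), none was higher (13.1%) and 12 were not called (median log2 fold change 0.04). No gene of the list was at background in both genotypes. The brighter 50% of genes, with 1887 of 9876 lower and 2634 higher, are therefore the closer comparison. The largest of these decreases was that of *Ikbkb*, encoding the catalytic IκB kinase β, with log2 values of 9.48, 9.49 and 9.32 in wild-type and 8.79, 8.79 and 8.71 in dKO samples. It kept 63.0% of its wild-type level, without overlap (log2 fold change -0.67, adjusted p = 3.5e-05 from limma). *Irak3*, an Irak relative that inhibits signalling, fell by 0.30 (adjusted p = 0.00588), and the kinase gene *Irak2* by 0.29 (adjusted p = 0.0200). *Tollip*, which encodes a further inhibitor, fell by 0.17 (adjusted p = 0.0181). The call on *Irak2* was lost without wild-type replicate 2, dKO replicate 2 or dKO replicate 3 (highest adjusted p = 0.0745). That on *Tollip* was lost without wild-type replicate 1, wild-type replicate 2 or dKO replicate 1 (highest adjusted p = 0.0563). Without wild-type replicate 2, 2 genes of the list were lower. With the t-test the calls on *Irak3* (adjusted p = 0.0755) and *Irak2* (0.152) were lost, and 3 genes of the list were lower and 2 higher. *Irak1* and *Traf6*, kinase and ubiquitin ligase of the core pathway, had log2 fold changes of 0.07 each (adjusted p = 0.435 and 0.366).

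Genes at the end of the pathway moved in both directions. Of 16 measured genes of NF-κB and MAP kinase endpoints and feedback, 3 were lower (10.0% over all genes), 6 were higher (13.1%) and 7 did not pass the test (median 0.01). With the t-test 1 was lower and 2 were higher, and with 1 array left out 2 to 4 were lower and 4 to 5 higher. Among those higher were *Nfkb2*, the p100 precursor of the alternative NF-κB pathway (log2 fold change 0.56, adjusted p = 1.4e-04 from limma), and *Nfkbia*, the inhibitor IκBα, itself an NF-κB target (0.42, adjusted p = 0.00162). *Relb* was higher as well (0.40, adjusted p = 0.00272 from limma). *Rel*, which encodes the c-Rel subunit, was lower (-0.41, adjusted p = 0.00210), as were *Bcl3* (-0.44, adjusted p = 0.00325) and *Nfkbiz* (-0.21), both encoding nuclear IκB proteins. The call on *Nfkbiz* did not hold on leaving out wild-type replicate 2 (adjusted p = 0.0539), but held with the t-test. With the t-test the calls on *Rel* (adjusted p = 0.0624), *Bcl3* (0.0836), *Nfkbia* (0.0545) and *Relb* (0.0697) were lost.

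Most Toll-like receptors use the same adaptor through TIR domains of their own. Of 16 measured genes of Toll-like receptors and other TIR proteins, 2 were lower, 2 were higher and 12 did not pass the test (median 0.01), and 7 were at background in both genotypes. These counts are near the shares over all genes, 10.0% lower and 13.1% higher. *Tlr1*, which recognizes bacterial lipopeptides together with Tlr2, had log2 values of 7.60, 7.46 and 7.49 in wild-type and 5.72, 5.50 and 5.77 in dKO samples. Like *Il18r1*, it dropped without overlap to about the background percentile (log2 fold change -1.85, adjusted p = 2.2e-07), a decrease of at least 3.57-fold. *Tlr7*, an endosomal receptor for RNA, was lower by 2.06-fold (log2 fold change -1.05, adjusted p = 1.6e-05). *Tlr2* was higher at 0.24 (adjusted p = 0.00501). *Tlr3* was also called higher, at 0.20 (adjusted p = 0.0429), although it lay under the background percentile. That call held only without dKO replicate 3 among the arrays left out in turn (highest adjusted p = 0.136).

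Of 10 genes known to go with responsiveness of T cells to interleukin-18, 6 were lower, none was higher and 4 were not called, at a median log2 fold change of -0.26. Over all genes 10.0% were lower and 13.1% higher, at a median of 0.01. *Stat4*, which transmits interleukin-12 signals, had log2 values of 9.90, 10.08 and 10.29 in wild-type and 8.91, 8.83 and 9.0 in dKO samples (2.26-fold lower, adjusted p = 1.3e-05 from limma). *Il12rb1* and *Il12rb2*, the chains of the interleukin-12 receptor, fell by 0.75 (adjusted p = 4.3e-04) and 0.59 (adjusted p = 9.0e-05), the latter from 0.12 above to below the background percentile, which allows only a decrease of at least 1.12-fold to be stated. *Runx3* fell by 0.40 (adjusted p = 3.4e-04), *Cxcr3* by 0.23 (adjusted p = 0.00768) and *Il2rb* by 0.29 (adjusted p = 0.0200). The call on *Il2rb* was lost without wild-type replicate 1 or dKO replicate 1 (highest adjusted p = 0.0762) and with the t-test (0.151). *Tbx21*, *Ifng*, *Eomes* and *Zbtb16* did not pass the test. *Tbx21*, which encodes T-bet, averaged 5.80 on wild-type and 5.83 on dKO arrays, little above the background percentile.

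**Figure D4:**
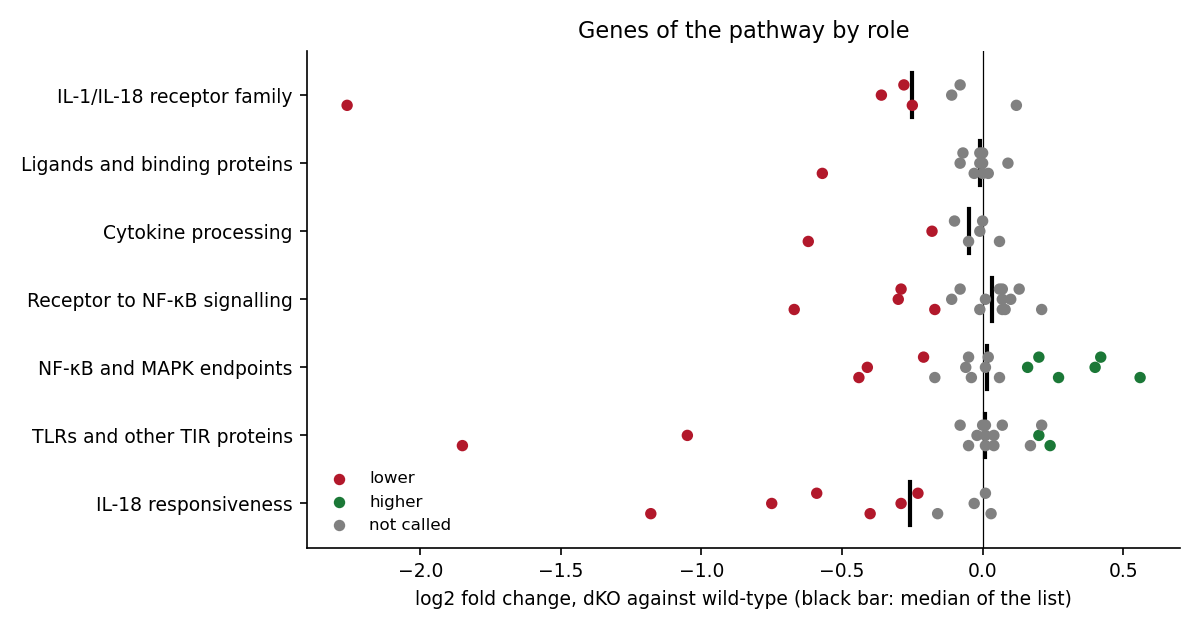
Log2 fold change of dKO against wild-type cells (horizontal axis) for the measured genes of the receptor family and of 6 lists of the pathway (rows), coloured red for lower, green for higher and grey for genes without a call at an adjusted p of 0.05, with black bars at the medians. The medians of the receptor family (-0.25) and of IL-18 responsiveness genes (-0.26) lie to the left of 0, and the other medians between -0.05 and 0.04.

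Markers of cells that could carry the interleukin-18 receptor were examined beside *Il18r1*. All 8 markers of regulatory T cells were lower, against 10.0% of all genes (median log2 fold change -0.93, and 0.01 over all genes). Their summed linear signal was 2900 to 3057 in wild-type and 1527 to 1736 in dKO samples. *Foxp3*, the factor that defines the lineage, kept 53.9% of its wild-type level. Over the 8 markers the level kept ran from 40.9% (*Tnfrsf18*) to 87.5% (*Ikzf4*). With the t-test 5 of these markers were lower, and with 1 array left out between 6 and 8, since the calls on *Ikzf4* (without any 1 array other than wild-type replicate 1) and *Gpr83* (without wild-type replicate 2, wild-type replicate 3 or dKO replicate 1) were lost. Of 8 measured markers of innate-like T and NK cells, 1 was lower, *Nkg7* (log2 fold change -0.54, adjusted p = 0.00493 from limma, and 0.111 with the t-test, which called none of the list), and 5 were at background in both genotypes. Their summed linear signal was 320 to 362 in wild-type and 293 to 312 in dKO samples. Of the markers of DP thymocytes 2 of 6 were higher and 1 was lower. Those higher were *Dntt* (log2 fold change 1.52, adjusted p = 1.4e-05 from limma) and *Cd8b1* (0.54, adjusted p = 3.8e-05). Neither overlapped between genotypes, and both calls held under every setting. The lower marker was *Rag1*, a call lost without wild-type replicate 1, wild-type replicate 2, dKO replicate 2 or dKO replicate 3 (highest adjusted p = 0.150). It was also lost under either renormalization, an intensity trend with robust variances or the t-test. The part of these cell types in the decrease of *Il18r1* was not tested.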

How the data were processed

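Log2 values of 6 Affymetrix arrays were used as deposited. The authors analysed scanner files in Partek, and the submitters' notes name RMA, which corrects background, equalizes arrays and gives 1 log2 value per transcript row. RMA can hide a shift shared by most genes and compresses differences of dim genes. The methods name the Mouse Gene 1.0 ST array and the design text the Exon 1.0 ST array. Versions and the genome build: not given in the sources used here. Precision is limited by the number of arrays.

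Rows were named through the array annotation, updated by Entrez identifier with RefSeq (GRCm38.p6). Of 25254 rows, 21496 had 1 symbol (21415 found in RefSeq), 1565 several and 2193 none. Only rows with 1 symbol were used, and the brightest row of a gene by mean was kept, which gave 19752 genes. limma 3.58.1 in R 4.3.3 was fitted to all genes with genotype as the only term and Benjamini-Hochberg adjustment at 0.05, and its test was tried on simulated data. Some listed genes are not analysed here. Olfactory and vomeronasal receptor genes gave the background. A group was at background where its mean did not exceed their mean 95th percentile. Confidence intervals are limma's moderated 95% intervals.

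The members and lists were chosen with earlier results of these data known. Named were all measured members, all neighbours of the cluster and up to 4 genes of each list with the smallest p. *Casp1*, *Irak1*, *Traf6*, *Il1b*, *Il18*, *Il33*, *Il1f6*, *Tbx21*, *Ifng*, *Eomes* and *Zbtb16* and genes that make up a small count were named after their values were seen. Alternatives were renormalization (quantile, cyclic loess), the brighter 75% or 50% of genes, the mean of a gene's rows and all rows. Others were an intensity trend with robust variances, a t-test (two-sided, equal variances), a replicate block, each array left out, and other definitions of background. The paper's methods name Partek and no test for the arrays. Figures were drawn with matplotlib 3.10.9.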

Additional observations from a re-analysis of the deposited data

How the results depend on the processing

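All 7 measured members kept their direction and their side of the threshold under every alternative that could be computed. The log2 fold change of *Il18r1* ranged from -2.30 to -2.21, and *Il18rap* and *Il1r2* fell outside the brighter 75% of genes, so those filters gave no value for them. With the replicate number as a block (replicate block), 4 members were lower and none higher, as without it, and in the lists 5 in place of 6 endpoint genes were higher (*Nfkbib* was lost), with no other list count changed. Deviations of same-numbered arrays correlated at 0.10, 0.02 and 0.07. Replicates 1 and 3 of dKO correlated best with the same-numbered wild-type array, and dKO replicate 2 with wild-type replicate 3 (0.04). Correlations this small do not settle whether the numbers mark pairs. Counts of members at background rest on the definition. By the 95th percentile of the receptor genes they were 2 in wild-type and 3 in dKO cells, by their median 0 and 0, and by the first quartile of all genes 2 in dKO cells. By the first quartile, the member no longer at background in dKO cells was *Il18r1*. Its dKO mean of 5.27 lay above that quartile (5.04) and above the median of the receptor genes (4.21). With the t-test, 0 ligand genes, 1 processing gene and 1 endpoint gene were lower, and 2 signalling genes, 2 endpoint genes and 1 TIR gene were higher. In the brighter 75% and 50% of genes, 1 signalling gene (0 without a filter) and 1 TIR gene (2 without a filter) were higher, in each case. *Tlr3*, at 4.68 in wild-type and 4.88 in dKO cells, lay under the first quartile of all genes (5.04), so the filters left it out. With 1 array left out, 1 to 2 processing genes and 2 to 4 signalling genes were lower, and 1 to 2 TIR genes were higher. The low counts of the t-test were not examined further, and the cause was not tested. Signal over background limits *Il18rap*, *Il1r2* and the dKO value of *Il18r1*. Over all genes 1976 were lower and 2587 higher, against 1173 and 1392 with the t-test and 2328 and 2222 after cyclic loess normalization. The planned comparison of receptor protein sequences was not run.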

Other observations

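Markers of cells that use interleukin-1 or interleukin-33 receptors were examined as well. Of 5 markers of mast cells and basophils none had an adjusted p under 0.05, either from limma or from the t-test. Without adjustment 2 had a p under 0.05 from limma, and 4 of the 5 were at background in both genotypes. Of 7 myeloid markers, 1 was lower, *Itgam*, and 1 was higher, *Lyz2*, a call lost without any 1 array other than dKO replicate 3 (highest adjusted p = 0.126), with the t-test or with an intensity trend and robust variances, and 4 were at background. Of 4 measured B-cell markers 1 was lower, *Cd79b*, and 2 were at background in both genotypes. Of 5 markers of thymic epithelium 1 was called higher, *Epcam*, although it lay under the background percentile in both genotypes (-0.39 and -0.05 log2 units). With *Epcam*, 2 of these 5 were at background in both. The 1 measured erythroid marker, *Alas2*, had an adjusted p of 0.864.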
